A study of Mus musculus with 24 samples.

Results

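Lymphoid progenitors (LPs) in which the gene for the chromatin factor CTCF was targeted were compared directly with LPs in which the gene for the RUNX partner Cbfβ was targeted. The members were chosen by label, as the 3 libraries labelled sgCTCF and the 3 labelled sgCbfb of the second QuantSeq experiment, and make up 6 of the 24 libraries of the series. The control libraries took no part in the contrast, although they and the sgMed12 libraries shared the estimate of the spread. Both groups were made in Cas9-LP, a progenitor cell line from the fetal liver of Ebf1-deficient mice that carry Cas9 at the Rosa26 locus, so every library comes from cells that lack this B-lineage regulator and carry the nuclease. The cells grew on OP9 stromal cells without a Notch ligand, in SCF, Flt3L and IL-7, received a retrovirus with an sgRNA and the surface marker hNGFR, and were sorted as hNGFR+CD45+ cells 5 days after transduction. Each target was hit by a pool of 3 sgRNAs, sgControl was directed to luciferase, and the sorted cells were a mixture of edited alleles rather than a clone. As a model the line is limited to progenitors held before the B-lineage block, and the labels do not say whether replicates came from separate transductions, so the P values measure the spread between these libraries, which may be technical.

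CTCF is a zinc-finger protein that binds DNA, stops loop extrusion by cohesin and so sets the borders of chromatin domains and the contacts between enhancers and promoters. Cbfβ has no DNA binding of its own: it is the shared partner that lets RUNX1, RUNX2 and RUNX3 bind DNA stably, and its loss disables the 3 RUNX proteins together. RUNX proteins can activate or repress, and in uncommitted progenitors they act on genes of the T, B, NK and myeloid programs. The comparison shows in which genes the loss of one factor leaves another level than the loss of the other; it does not by itself say in which of the groups a gene moved, and sgControl levels are therefore given as a reference.

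The libraries held between 3354483 and 4326782 reads on genes, so that 3 reads were worth between 0.693 and 0.894 CPM (reads on a gene, scaled to a common total of reads on all genes). A group with no more than 3 reads in any library was treated as at the floor, a limit that covers counting error only. Mitochondrial genes took 8.05% to 8.15% of the reads in sgCTCF and 6.76% to 7.73% in sgCbfb libraries. Replicates of both groups correlated with r between 0.978 and 0.982 over genes, on log2(CPM + 1). Markers of the labelled cell type were present in both groups: *Flt3*, the receptor for Flt3L, had means of 216 ± 4.02 CPM in sgCTCF and 219.7 ± 11.2 CPM in sgCbfb, and *Il7r*, the IL-7 receptor, of 205 ± 9.05 CPM in sgCTCF and 101 ± 12.3 CPM in sgCbfb (SD, n = 3, as for all means below). *Cd79a* and *Cd3e* were listed at 0 in all 6 libraries. The *Ebf1* transcript was still read in both groups, with means of 189 ± 17.6 CPM in sgCTCF and 188 ± 27.5 CPM in sgCbfb, so reads at its 3′ end do not check the deletion. Markers of OP9 cells were low: the 24 genes of the stromal list summed to 55.0, 45.7 and 29.6 CPM in the sgCTCF libraries and 32.8, 13.7 and 4.28 CPM in the sgCbfb libraries, with *Dcn*, *Lum* and *Col3a1* at 0 throughout.

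The targeted genes were read first. QuantSeq counts reads at the 3′ ends of transcripts, away from most Cas9 cuts, so these levels check the labels only indirectly. Values are listed for replicates 1, 2 and 3 in turn. *Cbfb* mRNA stood at 101, 112 and 125 CPM in sgCTCF and 48.3, 41.6 and 55.4 CPM in sgCbfb, and at 110.0, 109 and 124 CPM in sgControl. The sgCbfb libraries were the low ones and did not overlap with either of the other groups (log2 fold change 1.21 ± 0.16 (SE), adjusted p = 3.8e-06; exact permutation p = 0.1, the smallest that 3 libraries against 3 allow). *Ctcf* mRNA, by contrast, stood at 330.3, 272 and 314 CPM in sgCTCF and 362, 335 and 329 CPM in sgCbfb. The groups overlapped and the difference did not pass the test (log2 fold change -0.16 ± 0.10 (SE), adjusted p = 0.27; exact permutation p = 0.2), and the sgControl libraries, with 404, 356 and 413 CPM, were all higher than the sgCTCF libraries and overlapped with sgCbfb. The *Ctcf* transcript thus does not tell the groups apart, and the protein was not analysed here. The study itself blotted Cbfβ and CTCF in hNGFR+ cells 3 days after transduction. It reports a specific loss of Cbfβ and presents the same set of blots as its check of CTCF depletion. Exon bases of *Ctcf* overlap the antisense gene model *Gm5914*.

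Of 10 tested genes of the RUNX family and its partners, *Cbfb* alone rose in sgCTCF, and *Runx1* and *Runx2* fell. *Runx1* had 235, 245 and 226 CPM in sgCTCF and 583, 650.3 and 561 CPM in sgCbfb, with 249, 283 and 239 CPM in sgControl. Only the sgCbfb libraries were high (log2 fold change -1.34 ± 0.10 (SE), adjusted p = 1.2e-10). *Runx2* was also lower in sgCTCF, with 26.6, 40.7 and 40.7 CPM in sgCTCF and 67.7, 88.8 and 65.8 CPM in sgCbfb (log2 fold change -1.03 ± 0.16 (SE), adjusted p = 3.1e-05). Unlike at *Runx1*, sgControl lay between the groups at *Runx2*, with 46.7, 56.7 and 46.5 CPM. The ratio fell under the threshold without sgCTCF replicate 1, at a log2 fold change of -0.84, or without sgCbfb replicate 2, at -0.90. *Runx3* had 379, 337 and 367 CPM in sgCTCF and 331, 356 and 339 CPM in sgCbfb and did not pass (log2 fold change 0.08 ± 0.10 (SE), adjusted p = 0.64).

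A gene was tested where 3 or more libraries reached 1 CPM, which left 13177. It was called where the adjusted P value of limma was under 0.05, the means differed by more than 2-fold and the higher of the means exceeded 10 CPM. In all 905 genes or 6.87% were called. Of these, 459 genes (3.48%) were higher in sgCTCF and 446 (3.38%) were lower. These shares are the background for the counts of called members in each list below, and a single call in a list is not read as a result about it. The differences were often large, since 171 of the genes higher in sgCTCF and 136 of those lower exceeded 4-fold, while the median over all tested genes was -0.02 on the log2 scale. Log2 fold changes are given below as sgCTCF minus sgCbfb on log2(CPM + 1), a scale on which changes of low genes appear too small. A gene is said below to have risen or fallen when it was called higher or lower in sgCTCF than in sgCbfb. In RNA from sorted populations, fewer cells of a kind and less RNA per cell cannot be told apart. In mixed pools the share of cells that lost the protein is not known either.

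**Figure D1:**
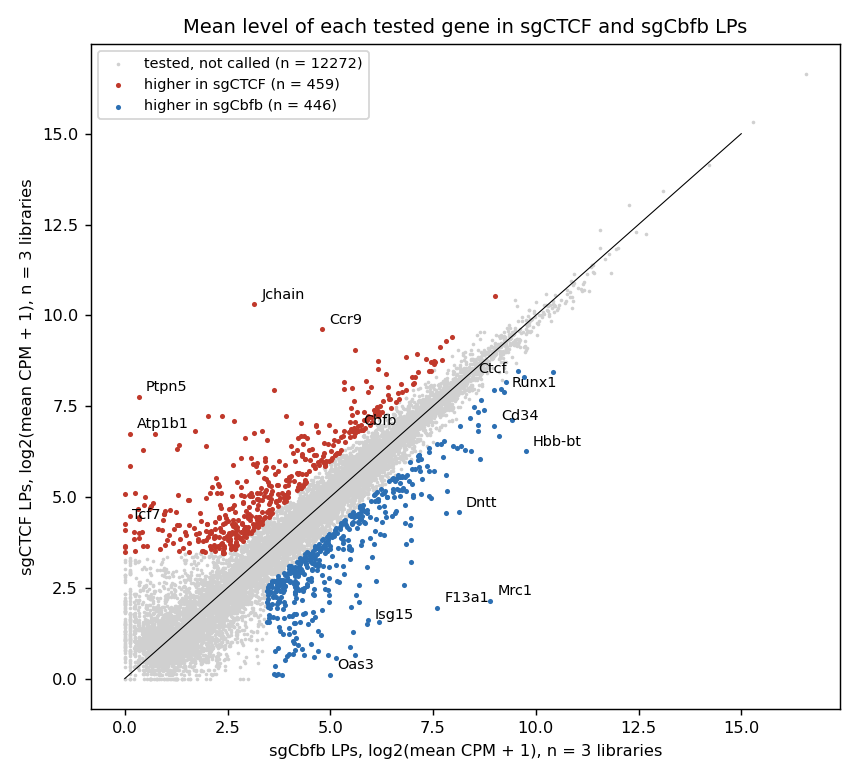
Mean level of each of the 13177 tested genes in sgCbfb LPs (x axis) and sgCTCF LPs (y axis), as log2 of the mean CPM of 3 libraries plus 1; the line marks equal levels. The 459 genes called higher in sgCTCF are red and the 446 called lower are blue; Ptpn5, Atp1b1 and Jchain lie far above the line, Mrc1, F13a1 and Oas3 far below it, and Ctcf lies close to it.

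The largest differences in favour of sgCTCF were at genes with few or no reads in sgCbfb cells. *Ptpn5*, a tyrosine phosphatase best known from neurons, had 219, 239 and 188 CPM in sgCTCF and 0, 0.536 and 0.251 CPM in sgCbfb. It was at the floor in sgCbfb and at least 263-fold higher in sgCTCF (log2 fold change 7.44 ± 0.37 (SE), adjusted p = 5.4e-14), while sgControl had no more than 3.69 CPM, so that only sgCTCF libraries were high. *Atp1b1*, a subunit of the sodium-potassium pump, behaved alike with 118, 112 and 87.6 CPM in sgCTCF and 0, 0.268 and 0 CPM in sgCbfb, at least 129-fold higher in sgCTCF, and 8.97, 7.38 and 1.70 CPM in sgControl; its exons overlap those of *Nme7* on the other strand. *Jchain*, which encodes the chain that joins IgM and IgA into polymers and is expressed in lymphoid progenitors, was the most abundant of these genes, with 1238, 1283 and 1268 CPM in sgCTCF and 4.47, 9.38 and 9.82 CPM in sgCbfb (log2 fold change 7.22 ± 0.17 (SE), adjusted p = 3.9e-20). The sgControl libraries, at 613, 665 and 570.1 CPM, lay between the groups.

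Other genes were high in sgControl cells too and low in sgCbfb cells alone. *Ccr9*, the chemokine receptor that guides progenitors to the thymus, had 968, 725 and 671 CPM in sgCTCF and 27.4, 24.4 and 29.0 CPM in sgCbfb (log2 fold change 4.81 ± 0.16 (SE), adjusted p = 2.0e-17) and 627, 536 and 439.5 CPM in sgControl; an antisense gene model covers part of its exons. For *C1ql2*, a C1q-like secreted protein, the values were 158, 119 and 172 CPM in sgCTCF and 3.88, 2.95 and 5.54 CPM in sgCbfb (log2 fold change 4.89 ± 0.18 (SE), adjusted p = 1.6e-16), against 171, 179.6 and 123 CPM in sgControl. *Ly6d*, a surface protein that marks B-lineage priming, showed 70.3, 73.2 and 93.6 CPM in sgCTCF and 0.298, 2.95 and 1.01 CPM in sgCbfb (log2 fold change 5.19 ± 0.27 (SE), adjusted p = 1.2e-13), and 115, 137 and 77.7 CPM in sgControl. In each of these 3 genes the sgCTCF and sgCbfb libraries did not overlap, but the rule that named them required this. Over all 13177 tested genes, the libraries did not overlap in 2579 genes higher in sgCTCF and 2637 lower. In *C1ql2* and *Ly6d* the sgCTCF libraries overlapped with sgControl. *5830411N06Rik*, *Cd163l1*, a scavenger receptor of γδ T cells, and *Actr3b*, an actin-related protein, also rose strongly, with log2 fold changes of 5.30, 5.73 and 4.32. *Cd7*, a surface protein of early T and NK cells, had 38.4, 32.3 and 28.9 CPM in sgCTCF and 0.298, 0 and 0.251 CPM in sgCbfb, at least 40.6-fold higher in sgCTCF. The sgControl libraries overlapped with sgCTCF at *5830411N06Rik*. At *Cd163l1*, *Actr3b* and *Cd7* they lay between the other groups, and sgCTCF exceeded sgControl by 1.78, 1.09 and 0.92 on the log2 scale. In all, 24 genes called higher had 3 reads or fewer in each sgCbfb library, and 10 called lower had 3 or fewer in each sgCTCF library.

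**Figure D2:**
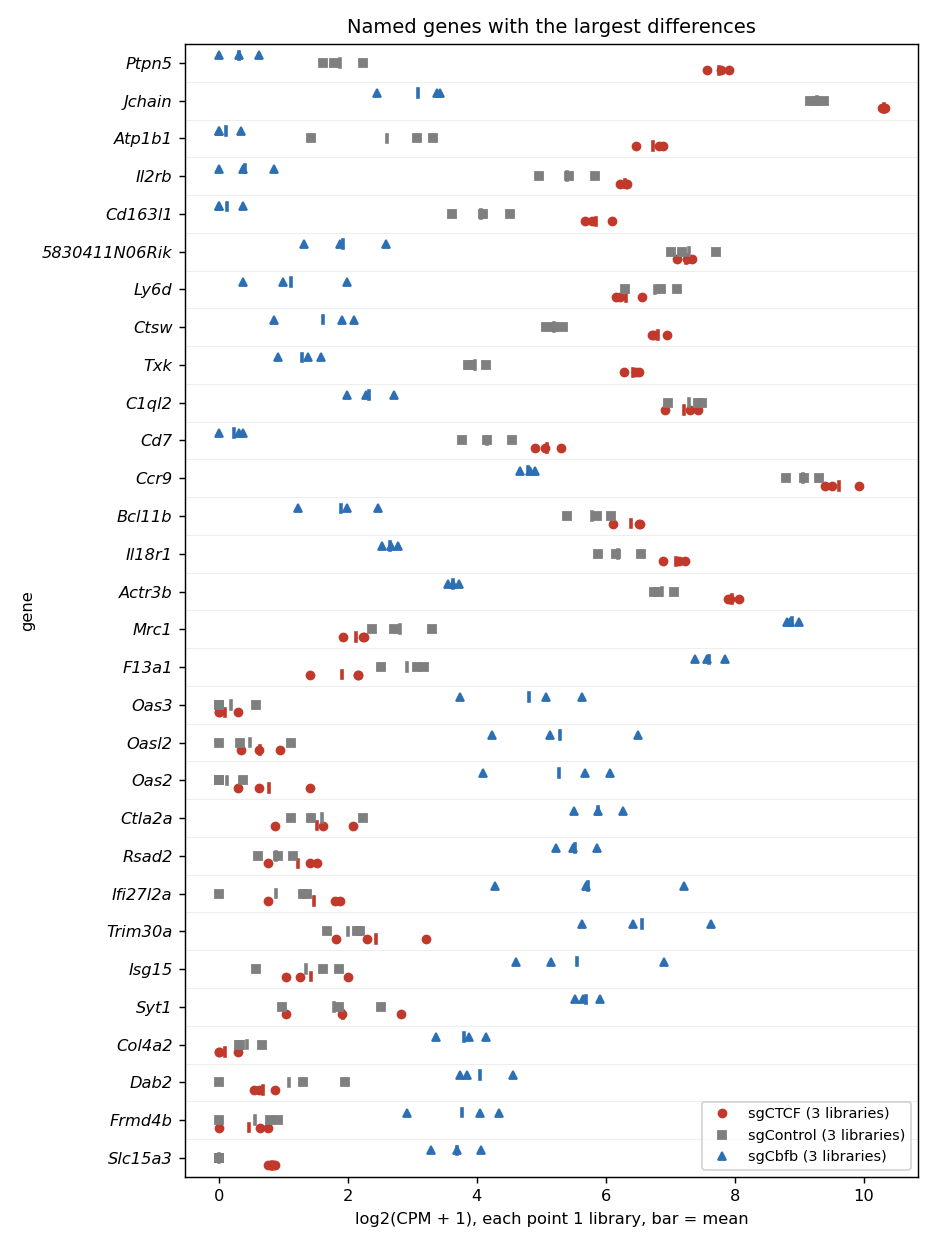
Levels of the named genes with the largest differences, as log2(CPM + 1), each point 1 library and each bar the mean of 3, for sgCTCF (red circles), sgControl (grey squares) and sgCbfb (blue triangles). In the upper 15 genes every sgCTCF library lies above every sgCbfb library, and in the lower 15 every one lies below. The rule that chose the genes with reads in every library required this separation. In Ptpn5 the sgControl libraries lie close to sgCbfb, and in Ly6d and C1ql2 they overlap with sgCTCF.

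The sequences upstream of these genes were read from RefSeq because Cbfβ acts through the sites that RUNX binds. TGTGGT or TGCGGT was searched on both strands of the 250 bases before each annotated start. One or the other was in 18.6% of all 32851 promoters, in 23.01% of the 452 promoters of genes called higher and in 20.2% of the 435 of genes called lower. A CTCF core, taken as CCA, any 2 bases, AG, any 2 bases and GGC on either strand, was in 2.07%, 1.77% and 3.45% of the same sets. Among the named genes with the largest differences, 3 of 10 matched rises held the RUNX letters (*Ptpn5*, *Atp1b1* and *Txk*), as did 2 of 12 matched falls (*Oasl2* and *Col4a2*). *Ptpn5* and *Txk* held them in 1 of 2 annotated promoters each. The windows of the rises, and of *Oasl2* from the falls, are given for comparison. The letters are shown in capitals, as they read on the strand of the gene, on build GRCm38.p6, 5′ to 3′.
Ptpn5: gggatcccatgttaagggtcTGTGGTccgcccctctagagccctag
Atp1b1: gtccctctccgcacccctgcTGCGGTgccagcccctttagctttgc
Txk: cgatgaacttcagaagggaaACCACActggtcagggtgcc
Oasl2: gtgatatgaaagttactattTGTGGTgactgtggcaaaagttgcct
The windows lie at chr7:47132652-47132697, chr1:164458506-164458551 and chr5:72736603-72736642 on the minus strand and at chr5:114896808-114896853 on the plus strand. The other matched genes, *Jchain*, *Ccr9*, *Bcl11b*, *Mrc1* and *F13a1* among them, held no match, which says only that these letters are not in those 250 bases.

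Genes of T-cell receptor signalling were more often higher than lower in sgCTCF. Of 16 tested genes of T-cell receptor signalling, 6 (37.5%) rose and 1 (6.25%) fell, against 3.48% and 3.38% over all genes tested. The median log2 fold change was 0.91. Without the called members the list summed to 266, 246 and 267 CPM in sgCTCF and 248, 281 and 269 CPM in sgCbfb and overlapped. *Lck*, the kinase that starts signalling from the receptor, had 90.4, 104 and 96.1 CPM in sgCTCF and 5.37, 6.97 and 7.30 CPM in sgCbfb (log2 fold change 3.71 ± 0.14 (SE), adjusted p = 6.4e-16), with 99.2, 117 and 88.2 CPM in sgControl: sgCTCF and sgControl overlapped and sgCbfb stood apart. *Zap70*, the kinase that binds the phosphorylated receptor, had 14.2, 16.1 and 9.71 CPM in sgCTCF and 0, 0.268 and 0.251 CPM in sgCbfb, at least 16.3-fold higher in sgCTCF. *Txk*, a Tec-family kinase of T and NK cells, had 76.5, 87.4 and 90.1 CPM in sgCTCF and 0.894, 1.61 and 2.02 CPM in sgCbfb (log2 fold change 5.12 ± 0.24 (SE), adjusted p = 2.2e-14), and its sgControl libraries, at 16.6, 13.9 and 13.6 CPM, lay between the groups. *Lat*, the adaptor below *Zap70*, and *Cd247*, the receptor's zeta chain, were higher by 2.93 and 2.98, the latter sharing exon bases with *Pou2f1* on the other strand, and *Cd2*, an adhesion receptor, by 2.06 on the log2 scale. *Lcp2*, which encodes the adaptor SLP-76, was the called member that fell: it had 4.29, 2.78 and 4.62 CPM in sgCTCF and 43.5, 43.4 and 57.4 CPM in sgCbfb (log2 fold change -3.33 ± 0.32 (SE), adjusted p = 1.5e-08), opposite in direction to its partner adaptor *Lat*. Of members not called, 3 higher and 2 lower in sgCTCF had an adjusted p under 0.05 in limma. The lower ones were *Cd5* and *Fyn*, at -2.18 and -0.39 on the log2 scale.

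T-lineage regulators split. Of 18 tested, 3 rose, 2 fell and the rest were not called, with a median log2 fold change of 0.29. The adjusted p of limma was under 0.05 in 8 members higher in sgCTCF and 3 lower, of which 5 and 1 were not called. Among these, *Lef1* and *Ikzf1* were higher by 2.98 and 0.74, and *Ets2* was lower by 0.50 on the log2 scale. *Bcl11b*, the factor of T-lineage commitment, had 91.2, 90.8 and 67.9 CPM in sgCTCF and 2.98, 1.34 and 4.53 CPM in sgCbfb (log2 fold change 4.49 ± 0.23 (SE), adjusted p = 1.0e-13) and 57.5, 66.7 and 41.2 CPM in sgControl. *Tcf7*, which encodes TCF1 and is an early Notch-induced gene of T progenitors, had 14.2, 20.9 and 18.95 CPM in sgCTCF and 0, 0 and 0 CPM in sgCbfb. With no read in sgCbfb, it was at least 22.02-fold higher in sgCTCF, and sgControl, at 1.85, 2.36 and 3.41 CPM, lay between. *Bach2*, a repressor shared by B and T cells, was higher by 1.46 on the log2 scale. *Zbtb7b*, the ThPOK gene of CD4 T cells and a known RUNX target, was lower with 2.95, 5.85 and 4.62 CPM in sgCTCF and 23.3, 27.1 and 19.1 CPM in sgCbfb (log2 fold change -2.17 ± 0.30 (SE), adjusted p = 5.0e-06). *Gata3* had 18.2, 21.2 and 22.6 CPM in sgCTCF and 27.1, 23.1 and 20.4 CPM in sgCbfb and did not pass (adjusted p = 0.59).

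Of 18 tested genes of NK and innate lymphoid cells, 8 rose and 1 fell, with a median log2 fold change of 1.45. *Il2rb*, the β chain of the receptors for IL-2 and IL-15, had 73.5, 79.4 and 78.8 CPM in sgCTCF and 0.298, 0.804 and 0 CPM in sgCbfb, at least 94.4-fold higher in sgCTCF, and 30.1, 55.8 and 42.1 CPM in sgControl. *Ctsw*, a protease of cytotoxic cells, had 122, 106 and 104 CPM in sgCTCF and 3.28, 0.804 and 2.77 CPM in sgCbfb (log2 fold change 5.18 ± 0.23 (SE), adjusted p = 5.7e-15). *Il18r1*, a chain of the IL-18 receptor, had 117, 148 and 140.1 CPM in sgCTCF and 5.37, 5.90 and 4.79 CPM in sgCbfb (log2 fold change 4.42 ± 0.18 (SE), adjusted p = 9.4e-16). In these 3 genes every sgControl library lay between the groups, with 35.6, 39.3 and 32.6 CPM for *Ctsw* and 57.8, 92.1 and 70.6 CPM for *Il18r1*. *Nkg7* and *Prf1*, of cytotoxic granules, and *Klrd1*, the receptor CD94, were higher in sgCTCF as well, by 4.15, 2.62 and 3.51 on the log2 scale. *Id2*, the inhibitor of E proteins that innate lymphoid cells require, was higher by 1.11, whereas its relative *Id1* fell by 3.12 on the log2 scale, with 4.56, 6.40 and 3.93 CPM in sgCTCF and 40.2, 60.1 and 51.9 CPM in sgCbfb. *Id2* and *Id1* were the called members of 6 tested genes for E proteins and their inhibitors. The chemokine *Ccl5* was the member that fell (log2 fold change -1.23 ± 0.36 (SE), adjusted p = 0.013), a call lost without sgCTCF replicate 3 (adjusted p = 0.076) or sgCbfb replicate 2 (adjusted p = 0.075) in limma.

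Of the 16 T-signature genes that the study names, *Notch3* and *Hes1* were chosen on LPs with *Cbfb* or *Ctcf* deleted. *Lck*, *Zap70* and *Thy1* were named near peaks shared by RUNX1 and CTCF. The others came from *Cbfb* deletion with and without Notch stimulation. Since expression after deletion guided most of these choices, the counts of this list are no independent evidence of a direction. Of 15 tested, 5 rose and 5 fell. *Thy1*, a surface glycoprotein of T cells, had 191, 149 and 200.1 CPM in sgCTCF and 64.1, 73.2 and 80.4 CPM in sgCbfb (log2 fold change 1.29 ± 0.13 (SE), adjusted p = 2.7e-08), and *Trgc4*, a constant segment of the γ receptor chain, was higher by 1.18 on the log2 scale. *Il2ra*, the CD25 gene whose protein marks the next T-progenitor stage, went the other way with 2.68, 1.67 and 1.85 CPM in sgCTCF and 17.0, 35.9 and 14.6 CPM in sgCbfb (log2 fold change -2.84 ± 0.40 (SE), adjusted p = 5.5e-06) and no more than 1.32 CPM in sgControl. *Nfe2*, a factor of erythroid and megakaryocytic cells, *Zfpm1*, the GATA cofactor FOG1, and *Ifitm3*, an interferon-induced gene, fell by 1.83, 1.23 and 2.08 on the log2 scale. *Hes1*, the Notch target, had 22.004, 11.97 and 11.6 CPM in sgCTCF and 5.96, 9.38 and 4.53 CPM in sgCbfb and passed (log2 fold change 1.08 ± 0.33 (SE), adjusted p = 0.018); the call was lost without sgCTCF replicate 1 (adjusted p = 0.14), sgCbfb replicate 1 (adjusted p = 0.054) or sgCbfb replicate 3 (adjusted p = 0.10) in limma. Every library of both groups lay above the sgControl libraries at *Hes1*, which had 1.85, 3.25 and 1.95 CPM in sgControl. *Ctla4*, *Cd3g*, *Tubb3*, *Gfi1* and *Notch3* were not called, with log2 fold changes of 2.20, 1.89, -0.39, 0.07 and -0.48, and the means of *Ctla4* and *Cd3g* stayed under the 10 CPM that a call requires. *Dtx1* had a single read in the 6 libraries and was not tested. The study reports that *Lck*, *Zap70* and *Thy1* increased in LPs on *Cbfb* deletion. In both experiments, however, every sgCbfb LP library lay below every sgControl LP library at each of these genes. In the first experiment their means were 121, 7.81 and 188 CPM in sgControl and 34.1, 1.38 and 150 CPM in sgCbfb. The reason for this discrepancy was not tested.

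Among receptors and targets of Notch, *Notch1* itself was lower, with 199, 212 and 197 CPM in sgCTCF and 396, 455 and 372 CPM in sgCbfb (log2 ratio of the means -1.01, adjusted p = 5.2e-07). This difference was close to the 2-fold threshold and fell under it with another scaling (-0.98 with median-of-ratios factors), without sgCTCF replicate 1 (-0.99), without sgCTCF replicate 3 (-0.98) or without sgCbfb replicate 2 (-0.92 on the log2 scale). *Myc*, a growth regulator and Notch target, had 9.39, 17.0 and 20.8 CPM in sgCTCF and 57.5, 54.2 and 87.9 CPM in sgCbfb (log2 fold change -2.05 ± 0.22 (SE), adjusted p = 7.9e-08), with sgControl between the groups at 39.0, 31.0 and 40.4 CPM. In the list of 15 tested genes, 2 rose and 3 fell.

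B-lineage priming had the most genes called higher of any list. Of 18 tested genes, 9 rose, 4 fell and 5 were not called, with a median log2 fold change of 0.90. *Pax5*, the factor of B-lineage commitment, had 21.7, 24.8 and 19.4 CPM in sgCTCF and 1.49, 0.804 and 0.503 CPM in sgCbfb (log2 fold change 3.60 ± 0.30 (SE), adjusted p = 1.2e-09) and 6.59, 9.15 and 9.98 CPM in sgControl, so that the 3 groups did not overlap. *Spib*, an Ets factor of B and dendritic cells, had 28.7, 29.0 and 22.2 CPM in sgCTCF and 0.894, 0 and 0.251 CPM in sgCbfb, at least 32.5-fold higher in sgCTCF. *Irf4*, *Cd24a*, *Ighm*, *Blnk* and *Il7r* were higher by 2.71, 1.75, 1.32, 1.17 and 1.02 on the log2 scale. *Dntt*, *Rag1* and *Rag2* differed in the other direction. *Dntt*, which encodes the terminal transferase that adds bases at joints, had 26.8, 19.2 and 22.9 CPM in sgCTCF and 303, 287 and 243 CPM in sgCbfb (log2 fold change -3.55 ± 0.17 (SE), adjusted p = 4.0e-14), with 27.2, 39.3 and 25.3 CPM in sgControl. *Rag1* had 6.17, 5.01 and 5.08 CPM in sgCTCF and 68.6, 54.2 and 80.1 CPM in sgCbfb (log2 fold change -3.40 ± 0.26 (SE), adjusted p = 2.6e-10) and its neighbour *Rag2* 4.83, 8.63 and 9.01 CPM in sgCTCF and 27.1, 24.1 and 30.2 CPM in sgCbfb; with *Btk*, a kinase of B-cell signalling, they were the members that fell. The sgCTCF and sgControl libraries overlapped at *Dntt* and the sgCbfb libraries were the high ones.

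**Figure D3:**
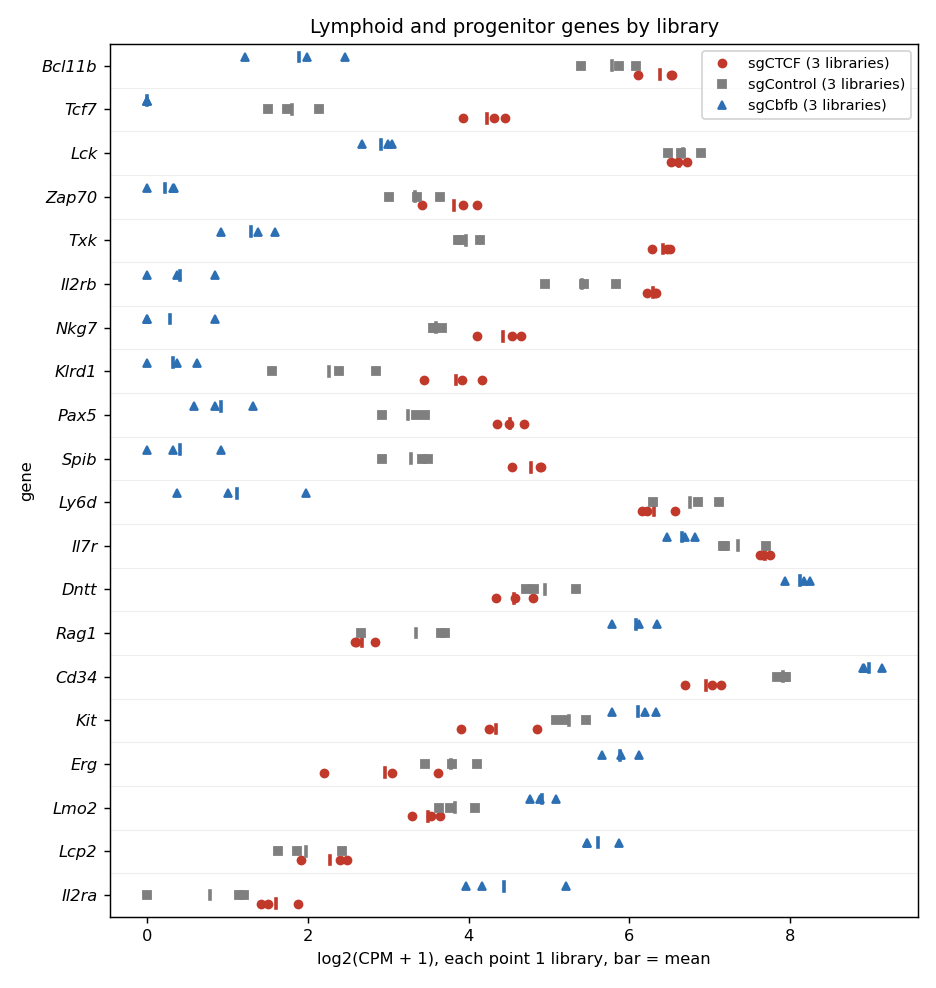
Levels of lymphoid and progenitor genes as log2(CPM + 1), each point 1 library and each bar the mean of 3, for sgCTCF (red circles), sgControl (grey squares) and sgCbfb (blue triangles). From Bcl11b to Il7r the sgCTCF libraries lie above the sgCbfb libraries, and from Dntt to Il2ra they lie below; Tcf7 is at 0 in the sgCbfb libraries.

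Progenitor regulators called at the 2-fold threshold were all higher in sgCbfb, while smaller differences with an adjusted p under 0.05 were higher in sgCTCF. Of 23 tested genes, none rose in limma, edgeR or DESeq2 and 7 fell. *Cd34*, the stem and progenitor sialomucin, had 139.5, 103 and 129.9 CPM in sgCTCF and 562, 477 and 482 CPM in sgCbfb (log2 fold change -2.03 ± 0.11 (SE), adjusted p = 5.5e-13), and sgControl lay between at 227, 247 and 243 CPM. *Erg*, an Ets factor of stem cells, had 7.25, 3.62 and 11.3 CPM in sgCTCF and 68.3, 58.5 and 49.4 CPM in sgCbfb (log2 fold change -2.93 ± 0.27 (SE), adjusted p = 7.5e-09). *Kit*, the receptor for SCF, had 14.0, 18.1 and 28.0 CPM in sgCTCF and 54.3, 79.4 and 72.0 CPM in sgCbfb (log2 fold change -1.76 ± 0.20 (SE), adjusted p = 1.9e-07). *Lmo2*, a bridging factor of stem and erythroid cells, fell by 1.42, and *Myb*, a factor of immature blood cells, by 1.10 on the log2 scale. The median log2 fold change of the list was -0.08, with 9 members of positive sign. The adjusted p was under 0.05 in 7 members lower in sgCTCF, all of them called, and in 7 members higher in sgCTCF by less than the call requires. These were *Bcl11a* at 0.97, *Mn1* at 0.89, *Mycn* at 0.75, and *Hoxa5*, *Hoxa7*, *Hoxa9* and *Hoxa10*, homeobox genes of progenitors, at 0.39, 0.29, 0.35 and 0.30 on the log2 scale. *Bcl11a* passed as higher without sgCTCF replicate 1 and without sgCbfb replicate 3, and *Mn1* without sgCbfb replicate 1.

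Single genes of myeloid and erythroid cells were among the largest falls. *Mrc1*, the macrophage mannose receptor, had 3.76, 2.78 and 3.70 CPM in sgCTCF and 508, 460.2 and 447 CPM in sgCbfb (log2 fold change -6.75 ± 0.27 (SE), adjusted p = 9.4e-16), with 4.22, 8.86 and 5.60 CPM in sgControl, the largest difference on the sgCbfb side. *F13a1*, the coagulation factor XIII A chain of monocytes and megakaryocytes, had 3.49, 1.67 and 3.47 CPM in sgCTCF and 166, 228 and 188 CPM in sgCbfb (log2 fold change -5.68 ± 0.26 (SE), adjusted p = 7.5e-15). *Hbb-bt*, an adult β-globin, had 57.4, 79.4 and 89.2 CPM in sgCTCF and 952, 792 and 845 CPM in sgCbfb (log2 fold change -3.52 ± 0.15 (SE), adjusted p = 1.8e-15). In these genes the sgCbfb libraries alone were high, as sgControl had no more than 8.04 CPM of *F13a1* and 143 CPM of *Hbb-bt*. Most defining markers were near 0 or overlapped: *Csf1r*, the defining receptor of macrophages, had means of 0.0893 ± 0.155 CPM in sgCTCF and 1.58 ± 1.49 CPM in sgCbfb, *Itgam* of 14.6 ± 0.682 CPM in sgCTCF and 14.6 ± 2.89 CPM in sgCbfb and *Adgre1* of 47.3 ± 12.6 CPM in sgCTCF and 61.9 ± 18.6 CPM in sgCbfb, and *Hba-a1*, *Hbb-bs* and *Klf1* had means under 1 CPM in both groups. *Lyz2*, the lysozyme of macrophages and granulocytes, did not overlap, with 0, 0 and 0.693 CPM in sgCTCF and 4.47, 4.56 and 2.52 CPM in sgCbfb (log2 fold change -1.99 ± 0.38 (SE), adjusted p = 2.8e-04), but stayed under the level of a call. Of 15 tested monocyte and macrophage markers, 3 fell and 1 rose, and the 24 genes of the list summed to 419, 429 and 394 CPM in sgCTCF, 1221, 1291 and 1064 CPM in sgCbfb and 183, 229 and 186 CPM in sgControl. *Mrc1*, *F13a1* and *Ly6c2* carried the higher sgCbfb sums, as the other members summed to 343, 347 and 292 CPM in sgCTCF and 254, 313 and 202 CPM in sgCbfb. With *Ccr2* left out as well, the sums were 213, 203 and 196 CPM and 232, 282 and 182 CPM and overlapped. *Ly6c2*, a monocyte surface protein also found on T cells, fell by 1.75, and *Ccr2*, a chemokine receptor of monocytes, was the member that rose, by 2.30 on the log2 scale, with 130.1, 144 and 95.9 CPM in sgCTCF and 21.8, 31.1 and 19.9 CPM in sgCbfb. Both groups were above sgControl at *Ly6c2*, with means of 80.0 CPM in sgCTCF and 270 CPM in sgCbfb against 11.2 CPM in sgControl. *Mpo*, a granule enzyme of granulocyte precursors, fell by 2.56 on the log2 scale, while *Elane*, *S100a8* and *S100a9* were listed at 0. The 16 granulocyte markers summed to 6.44, 6.68 and 7.86 CPM in sgCTCF and 35.8, 33.5 and 20.9 CPM in sgCbfb, and the 18 erythroid and megakaryocyte markers to 524, 606 and 518 CPM and 1207, 1036 and 1099 CPM. Without *Hbb-bt* the erythroid and megakaryocyte sums had the opposite order, at 467, 527 and 428 CPM and 255, 244 and 254 CPM; *Tfrc*, the transferrin receptor of dividing cells, differed by 0.92 on the log2 scale, under the fold of a call. *Mpo* and *Hbb-bt* were the called members, among 3 and 5 tested. The part of other cell types in these differences was not tested.

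Large falls outside these lists were at genes of varied function. *Ctla2a*, a cathepsin inhibitor, had 3.22, 0.835 and 2.08 CPM in sgCTCF and 57.5, 76.2 and 44.3 CPM in sgCbfb (log2 fold change -4.36 ± 0.34 (SE), adjusted p = 3.0e-10), and *Syt1*, a synaptic vesicle protein, had 1.07, 6.13 and 2.77 CPM in sgCTCF and 49.2, 59.0 and 45.1 CPM in sgCbfb (log2 fold change -3.76 ± 0.42 (SE), adjusted p = 1.5e-07). The genes at the floor in sgCTCF with the highest sgCbfb means were *Oas3*, *Dab2*, an endocytic adaptor, *Frmd4b*, *Col4a2*, a chain of basement membrane collagen, and *Slc15a3*, a lysosomal peptide transporter. They were at least 40.0-fold, 20.7-fold, 17.7-fold, 17.0-fold and 15.7-fold higher in sgCbfb. *Slc15a3* shares exon bases with *Tmem132a* on the other strand.

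Interferon-stimulated genes were the list with the largest share called in one direction. Of 38 tested genes, 26 or 68.4% were lower in sgCTCF than in sgCbfb and none was higher in limma, edgeR or DESeq2, against 3.38% lower over all genes tested. Every one of the tested members had a negative sign, and the median log2 fold change was -1.96. *Oas3*, *Oasl2* and *Oas2*, of the 2′-5′-oligoadenylate synthetase family that senses double-stranded RNA, had the largest falls. *Oas3* had 0, 0 and 0.231 CPM in sgCTCF and 48.3, 32.7 and 12.3 CPM in sgCbfb (log2 fold change -4.71 ± 0.40 (SE), adjusted p = 1.9e-09). *Oasl2* had 0.536, 0.278 and 0.924 CPM in sgCTCF and 89.7, 34.1 and 17.9 CPM in sgCbfb (log2 fold change -4.65 ± 0.46 (SE), adjusted p = 2.2e-08), and *Oas2* fell by 4.499 on the log2 scale. In *Oas3* and *Oasl2*, sgCTCF and sgControl were near 0, and the sgCbfb libraries were all high but unequal. *Usp18*, which removes ISG15 from proteins and dampens the receptor, had 0, 0.278 and 1.16 CPM in sgCTCF and 62.9, 26.5 and 14.1 CPM in sgCbfb (log2 fold change -4.41 ± 0.42 (SE), adjusted p = 1.2e-08). *Isg15*, the ubiquitin-like modifier, had 1.07, 1.39 and 3.00 CPM in sgCTCF and 118, 34.6 and 23.4 CPM in sgCbfb (log2 fold change -4.12 ± 0.46 (SE), adjusted p = 1.6e-07), and *Rsad2*, the antiviral enzyme viperin, had 1.88, 1.67 and 0.693 CPM in sgCTCF and 56.9, 44.0 and 36.5 CPM in sgCbfb (log2 fold change -4.29 ± 0.36 (SE), adjusted p = 1.5e-09). The sgCTCF libraries had no more than 3.00 CPM of any of these 3 genes. *Ifi27l2a* and *Trim30a*, further interferon-induced genes, fell by 4.24 and 4.12 on the log2 scale. Members of the Oas, Ifit and Trim30 families are close copies, and reads may be split between them.

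The spread within sgCbfb was wide for this list. Its 40 genes summed to 3043, 1942 and 1309 CPM in sgCbfb replicates 1, 2 and 3, to 699.6, 710.0 and 611 CPM in the sgCTCF libraries and to 529.8, 519 and 492 CPM in sgControl. All 3 sgCbfb libraries lay above all 6 others, and replicate 1 had the highest sum and replicate 3 the lowest. The sums of stromal markers given above had the same order among the sgCbfb libraries; in the sgCTCF libraries they were higher than in sgCbfb replicates 2 and 3, at lower interferon sums, and their part in the result was not tested. Without sgCbfb replicate 1, 20 members were called lower and again none higher. MHC class I genes, which interferon also induces, had no call among 16 tested in limma (4 at an unadjusted P value under 0.05, and none in edgeR or DESeq2), and *B2m*, their light chain, had 1337, 1347 and 1388 CPM in sgCTCF and 2753, 1692 and 1266 CPM in sgCbfb. The adjusted p of limma was under 0.05 in 3 of the 16 MHC class I genes, without a call. *Calr* and *Pdia3* were higher in sgCTCF by 0.82 and 0.32, and H2-T22 was lower by 0.89 on the log2 scale. H2-T22 passed as lower without sgCTCF replicate 2 or sgCbfb replicate 3.

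The upstream sequences of the interferon genes were read from RefSeq to show the element through which interferon-activated factors act, the ISRE. The motif was taken as GAAA followed, after any 2 bases, by GAAA again and was searched as above, and windows were taken with 20 bases on either side of the match nearest to the start. It was in 2.98% of all promoters, in 3.54% of those of genes called higher, in 6.44% of those of genes called lower, and in 5 of the 20 promoters found for 16 of the interferon genes called lower. Of the genes called higher and lower, 343 and 324 had a promoter in the table. The matching windows of these 5 genes are given on build GRCm38.p6, 5′ to 3′ on the strand of the gene, with complete matches in capitals; in *Isg15* 3 overlapping matches run together and in *Ifit1* there are 2, and a match is a description of letters, not a bound site.
Oas3: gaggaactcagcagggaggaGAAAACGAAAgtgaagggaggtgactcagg
Rsad2: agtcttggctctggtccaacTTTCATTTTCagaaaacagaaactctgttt
Isg15: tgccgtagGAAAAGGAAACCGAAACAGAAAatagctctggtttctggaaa
Ifit1: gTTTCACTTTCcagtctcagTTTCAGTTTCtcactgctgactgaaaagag
Gbp7: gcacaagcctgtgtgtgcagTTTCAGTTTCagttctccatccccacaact
These lie at chr5:120777705-120777754 (minus strand), chr12:26456543-26456592 (minus), chr4:156200855-156200904 (minus), chr19:34640784-34640833 (plus) and chr3:142530263-142530312 (plus). Beside them, *Ifit1* fell by 3.97 and *Gbp7* by 1.46 on the log2 scale.

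**Figure D4:**
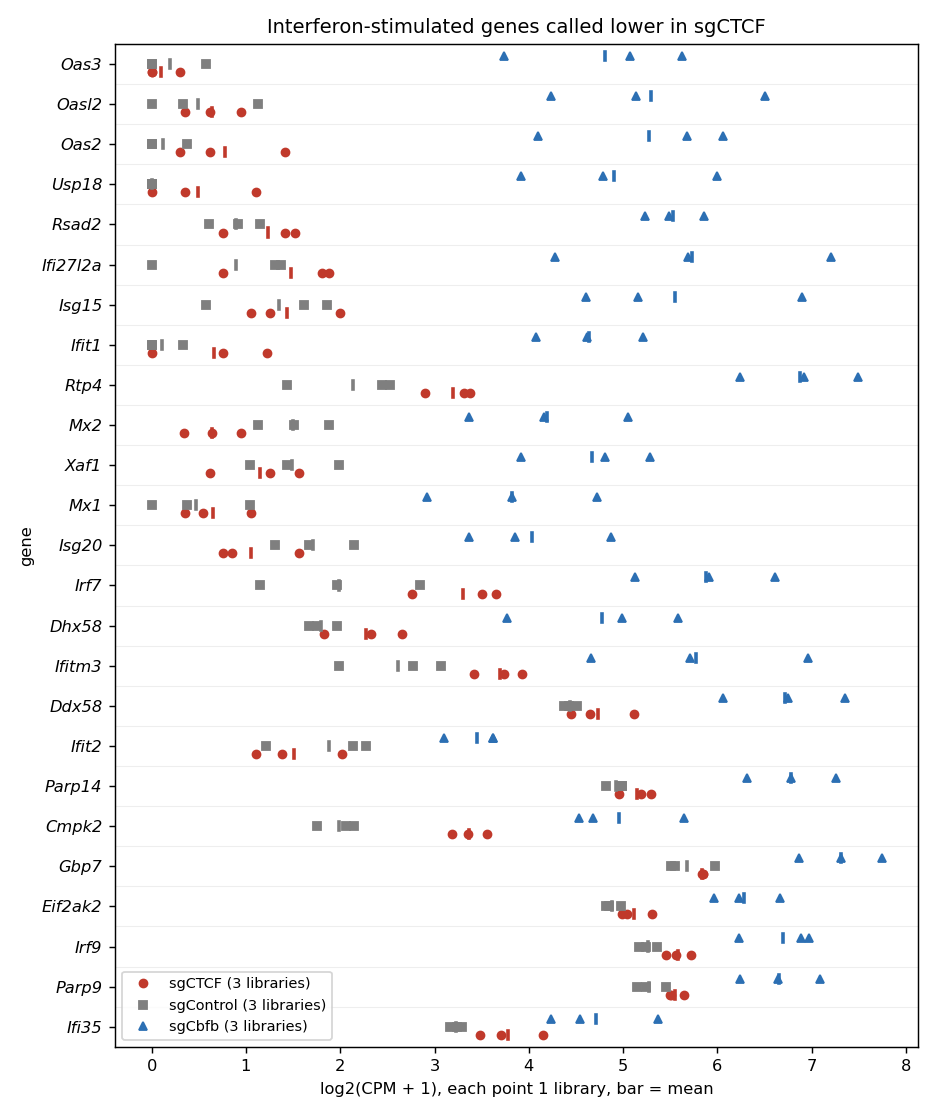
Levels of interferon-stimulated genes called lower in sgCTCF than in sgCbfb, all but 1 of the 26 called, as log2(CPM + 1), each point 1 library and each bar the mean of 3, for sgCTCF (red circles), sgControl (grey squares) and sgCbfb (blue triangles). The sgCbfb libraries lie to the right of all sgCTCF libraries in each gene shown and have a wide spread; the sgCTCF and sgControl libraries lie together at the left in most.

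Receptors for cytokines and chemokines were called in both directions. Of 26 tested cytokine receptors, 5 rose, among them *Il2rg*, the common γ chain, by 1.23 and *Tgfbr2* by 1.42, and 5 fell, among them *Il6st*, the gp130 chain of IL-6-type receptors, by 1.61 and *Csf2rb2*, a β chain of the IL-3 receptor, by 2.33 on the log2 scale. The chains of the IL-2 receptor differed in direction, *Il2rb* and *Il2rg* being higher in sgCTCF and *Il2ra* lower. Of 17 tested chemokines and their receptors, 4 rose and 2 fell. *Ccr7* and *Cxcr5*, receptors of lymphocyte homing, were higher, *Ccr7* with 109, 120.3 and 91.8 CPM in sgCTCF and 5.37, 9.38 and 8.82 CPM in sgCbfb (log2 fold change 3.63 ± 0.21 (SE), adjusted p = 7.7e-13) and *Cxcr5* at least 18.5-fold. Of 18 tested genes of JAK-STAT signalling, 2 rose and 2 fell. *Pim2*, a STAT5-induced kinase, had 54.7, 69.1 and 74.0 CPM in sgCTCF and 5.37, 7.51 and 5.54 CPM in sgCbfb (log2 fold change 3.23 ± 0.18 (SE), adjusted p = 3.5e-13), and *Socs3*, a feedback inhibitor, was higher by 2.04, whereas *Cish*, a feedback inhibitor of STAT5 signalling, fell by 1.17 on the log2 scale. Of 21 tested adhesion molecules, 4 rose and 4 fell. *Cd44*, the hyaluronan receptor that is high on progenitors, had 70.6, 81.0 and 74.9 CPM in sgCTCF and 341, 362 and 324 CPM in sgCbfb (log2 fold change -2.17 ± 0.13 (SE), adjusted p = 1.0e-12), and *Ly6a*, the Sca-1 gene, fell by 2.56, while *Selplg*, the selectin ligand PSGL-1, and *Itgb7*, an integrin chain of gut homing, were higher by 1.25 and 1.33 on the log2 scale. Among other integrin chains, *Itgb3* was higher by 1.61 and *Itgb5* fell by 1.81 on the log2 scale. *Gimap6*, a GTPase of lymphocytes, fell by 1.54 on the log2 scale; of 14 tested Ly6 and Gimap genes 2 rose and 3 fell.

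Dendritic cell markers were called higher in 4 of 13 tested and lower in none, with a median log2 fold change of 1.62. Beside *Ccr9* and *Spib* these were *Cd74*, the invariant chain of MHC class II, with 31.1, 36.8 and 32.4 CPM in sgCTCF and 5.66, 10.5 and 6.30 CPM in sgCbfb, and *Cox6a2*, a cytochrome oxidase subunit of plasmacytoid cells, with 327, 327 and 340.4 CPM in sgCTCF and 77.8, 87.7 and 78.1 CPM in sgCbfb (log2 fold change 2.02 ± 0.11 (SE), adjusted p = 3.3e-13). In all, 9 tested members had a positive sign and 4 a negative one. The latter were *Irf8*, *Tcf4*, *Bst2* and *Clec10a*, at -0.51, -0.27, -0.48 and -1.36 on the log2 scale. Of members not called, 3 higher and 1 lower had an adjusted p under 0.05 in limma. Without the called members the list summed to 389, 413 and 382 CPM in sgCTCF and 699, 495 and 363 CPM in sgCbfb and overlapped. Immediate early genes were divided, with *Jund* and *Ier5* higher by 1.31 and 1.09 while *Dusp2* fell by 1.997 and *Egr1* fell by 2.03 on the log2 scale. Receptors of the TNF family were called too: *Tnfrsf18*, the GITR gene, and *Fas* were higher by 1.86 and 1.66, and *Tnfrsf13b*, *Tnfrsf21* and *Tnfrsf1b* fell by 1.17, 1.35 and 1.12 on the log2 scale. Of 26 p53 targets tested, 3 rose, namely *Fas*, *Trp53inp1* and *Zmat3*, and *Sesn1* fell, a call lost without sgCTCF replicate 1 (-0.90 on the log2 scale). In the BCL2 family, *Bmf*, a BH3-only killer protein, was higher by 1.74 on the log2 scale. Imprinted non-coding genes differed in both directions: H19, next to a known CTCF-bound control region, had 61.5, 61.8 and 55.2 CPM in sgCTCF and 1.79, 15.02 and 6.30 CPM in sgCbfb (log2 fold change 3.13 ± 0.41 (SE), adjusted p = 1.7e-06) and 104, 94.5 and 66.0 CPM in sgControl, and *Kcnq1ot1* had 103, 140.3 and 131 CPM in sgCTCF and 322, 369 and 471 CPM in sgCbfb (log2 fold change -1.62 ± 0.23 (SE), adjusted p = 6.4e-06). The sgCbfb libraries were the low ones at H19; at *Kcnq1ot1* sgControl, with 243, 155 and 234 CPM, lay between the groups. They were the called members of 5 tested genes of clustered protocadherins and imprinted loci.

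Metabolic genes were lower in sgCTCF where they were called. Of 25 tested genes of glycolysis and hypoxia, 6 fell and none rose, with a median log2 fold change of -0.74. *P4ha1*, a collagen prolyl hydroxylase induced by hypoxia, had 20.4, 25.6 and 30.7 CPM in sgCTCF and 60.5, 79.6 and 74.8 CPM in sgCbfb (log2 fold change -1.46 ± 0.18 (SE), adjusted p = 6.1e-07), and *Bnip3*, a mitophagy receptor, had 28.4, 29.0 and 53.4 CPM in sgCTCF and 85.6, 140.2 and 96.7 CPM in sgCbfb (log2 fold change -1.55 ± 0.23 (SE), adjusted p = 9.9e-06); in sgControl *P4ha1* had 50.9, 49.9 and 58.0 CPM and *Bnip3* 124, 139.7 and 100.3 CPM, so that the sgCTCF libraries were the low ones. *Egln3*, *Pfkl*, *Eno1* and *Pgk1* made up the rest, and without sgCTCF replicate 1 only 2 genes of the list were called, *Egln3* (-0.94), *Pfkl* (-0.81), *Eno1* (-0.86) and *Pgk1* (-0.62 on the log2 scale) having dropped out. Without sgCbfb replicate 2 *Pfkl* (-0.98) and *Pgk1* (-0.79) were lost, and without sgCbfb replicate 3 *Eno1* (-0.94) and *Pgk1* (-0.82 on the log2 scale). In all, 4 of 20 tested genes of the amino acid and integrated stress response fell, *Asns*, *Chac1*, *Pck2* and *Trib3*, by 1.14, 1.19, 1.37 and 1.10 on the log2 scale. *Trib3* lost its call without sgCbfb replicate 3 (-0.90 on the log2 scale). *Scd1* and *Stard4*, of fatty acid and sterol metabolism, were the called members of 25 tested and fell by 1.46 and 1.15 on the log2 scale. *Mt1*, a metal-binding metallothionein, had 34.3, 29.2 and 32.6 CPM in sgCTCF and 122, 141 and 123 CPM in sgCbfb (log2 fold change -1.97 ± 0.14 (SE), adjusted p = 6.0e-11) and 121, 119 and 91.3 CPM in sgControl, and its neighbour *Mt2* fell by 1.92 on the log2 scale. They were the called members of 9 tested genes of the metal response.

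**Figure D5:**
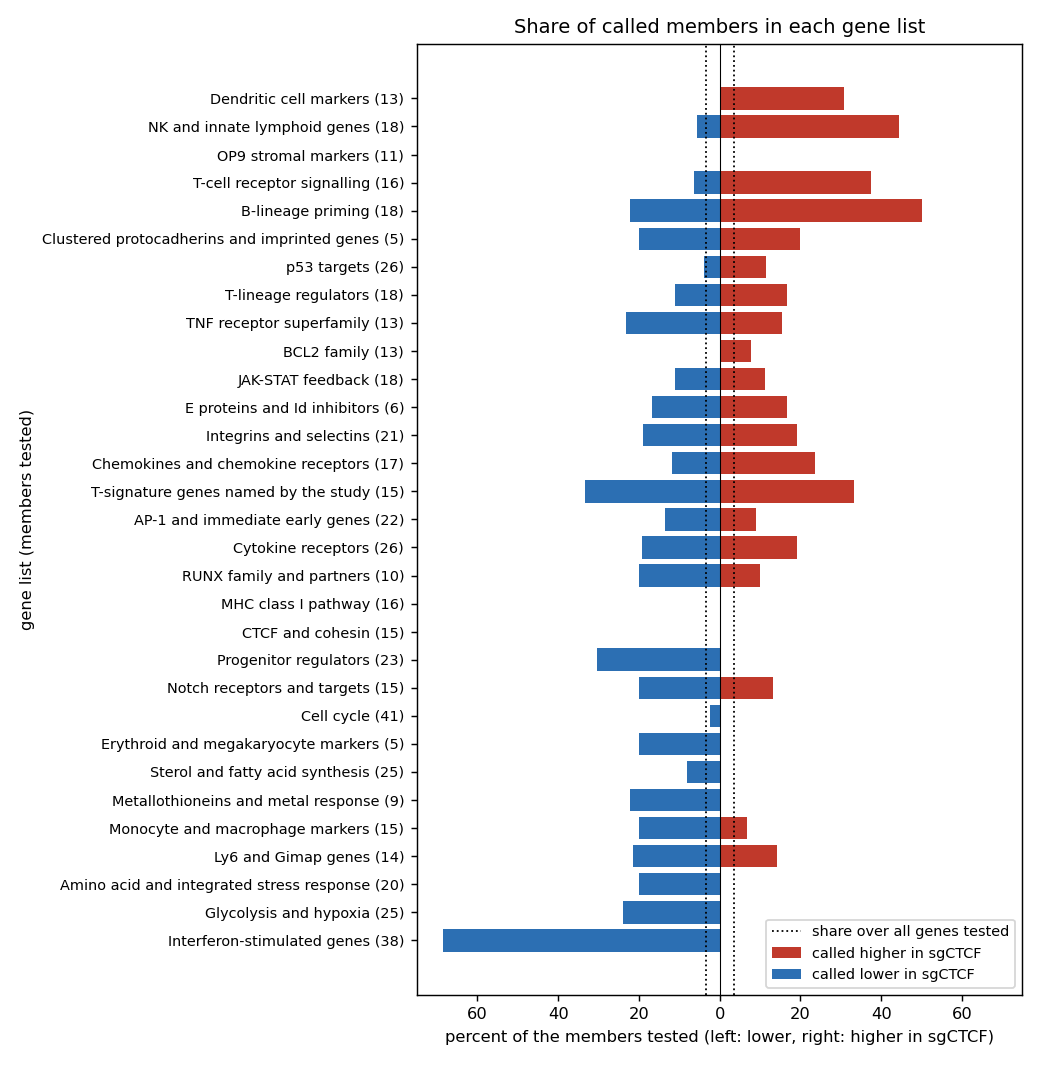
Share of the tested members of each gene list called higher (red, right) or lower (blue, left) in sgCTCF than in sgCbfb, for the lists with at least 5 tested members, with the number tested in parentheses and the lists ordered by their median log2 fold change. The dotted lines mark 3.48% and 3.38%, the shares over all 13177 genes; interferon-stimulated genes reach 68.4% on the left, and the MHC class I, CTCF and cohesin, and stromal lists have no bar.

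Other lists held few calls or none. CTCF and cohesin genes had no call among 15 tested in limma, with 3 at an unadjusted P value under 0.05, and none in edgeR or DESeq2. The adjusted p of limma was under 0.05 in 2 of them, both higher in sgCTCF by less than a call requires. These were *Stag1* at 0.64 (adjusted p = 8.0e-05) and *Esco1* at 0.84 on the log2 scale (adjusted p = 0.0023). *Smc3*, a subunit of cohesin, had means of 554 ± 19.6 CPM in sgCTCF and 531 ± 25.9 CPM in sgCbfb, and *Rad21*, which closes its ring, had 409 ± 16.5 CPM in sgCTCF and 438 ± 29.7 CPM in sgCbfb. Cell-cycle genes had 1 call in 41, *Cdkn2a*, which fell by 0.95 and lost its call without sgCTCF replicate 1 (-0.89) or sgCbfb replicate 2 (-0.78 on the log2 scale). Stromal markers had no call among 11 in limma, edgeR or DESeq2, although their median log2 fold change was 1.17. In limma, 7 had an unadjusted P value under 0.05 and 2, both higher in sgCTCF, an adjusted p under 0.05. *Fn1*, the fibronectin gene, had 9.12, 11.7 and 3.23 CPM in sgCTCF and 4.47, 1.88 and 0.251 CPM in sgCbfb and passed as higher without sgCTCF replicate 3. Of 2 tested mast cell markers none was called in limma, edgeR or DESeq2, with 1, higher in sgCTCF, at an adjusted p under 0.05 in limma.

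Called genes sometimes adjoined each other. Among tested genes in chromosomal order, 85 adjoining pairs were called in the same direction and 25 in opposite directions, and 157 called genes lay in 72 runs, 2 of 4 genes and 9 of 3. How many such pairs the shares called over all genes would give was not computed, so these counts are a description only. On chromosome 5 (GRCm38, chr5:88487975-88651392), *Enam*, *Jchain*, *Utp3* and *Rufy3* were all higher in sgCTCF, by 3.44, 7.22, 1.47 and 2.75 on the log2 scale. *Enam* fell under the level that a call requires without sgCTCF replicate 3 (3.25 on the log2 scale). *Rufy3*, a regulator of lysosome movement, had 142, 136 and 116 CPM in sgCTCF and 19.1, 18.5 and 18.4 CPM in sgCbfb, and *Utp3*, a ribosome biogenesis factor, 699, 592 and 601 CPM in sgCTCF and 242, 220.4 and 216 CPM in sgCbfb, with sgControl between at 424, 379.8 and 446 CPM. On chromosome 8 (chr8:71908635-72153142) the run was *Zfp617*, *Zfp961*, *Cyp4f18* and *Tpm4*. *Tpm4*, a tropomyosin of the cytoskeleton, had 553, 578 and 561 CPM in sgCTCF and 187, 221 and 199 CPM in sgCbfb (log2 fold change 1.48 ± 0.13 (SE), adjusted p = 1.9e-09), and sgControl, at 156, 201 and 169 CPM, lay with sgCbfb. *Cyp4f18* and *Zfp961* share exon bases on opposite strands, and both lost their call without sgCTCF replicate 2 (0.99 and 0.88), *Cyp4f18* also without sgCbfb replicate 3 (0.83 on the log2 scale). On chromosome 7 (chr7:140173217-140300736) *Olfr523*, an olfactory receptor gene, joined *Cd163l1* and *5830411N06Rik*; it had 14.8, 21.4 and 11.8 CPM in sgCTCF and 0, 0 and 0 CPM in sgCbfb and 0.791, 0.59 and 0.73 CPM in sgControl, so that only sgCTCF libraries held more than 3 reads. On chromosome 15 (chr15:74721204-74763620) *Them6* and *Lynx1* were higher with *Ly6d*, by 2.09 and 2.22 on the log2 scale. The fifth of the named runs, also on chromosome 7 (chr7:104338754-104507849), was lower and held *Trim12c*, *Trim30a* and *Trim30d*; *Trim12c* lost its call without sgCbfb replicate 1 (-0.72 on the log2 scale). The named runs of 3 were those with the largest summed log2 fold changes of the 9; close copies within the Trim and Ly6 clusters may share reads.

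Both groups were then set beside the shared sgControl libraries, so that the following values are not independent of each other and carry no test. Of the 459 genes higher in sgCTCF, 204 lay more than 1 log2 unit below sgControl in sgCbfb and 158 lay more than 1 above it in sgCTCF, with medians of -0.85 and 0.76. Of the 446 genes lower in sgCTCF, 263 lay more than 1 above sgControl in sgCbfb and 54 more than 1 below it in sgCTCF, with medians of 1.19 and -0.35. *Mrc1*, *Dntt* and *Id1* are genes of which only the sgCbfb libraries lay far from sgControl, *Ptpn5* and *Tpm4* are genes of which the sgCTCF libraries lay farther away, and *Jchain*, *Pax5* and *Cd34* lay on opposite sides of sgControl in the 2 groups.

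The first experiment gives separate libraries of sgCbfb and sgControl LPs, at between 1401314 and 1743319 reads, and was normalized on its own. In it, every sgCbfb library lay below every sgControl library for 212 of the 459 genes higher in sgCTCF (46.2%) and above for 12 (2.61%), against 8.39% and 9.08% of all genes tested. For the 446 genes lower in sgCTCF, every sgCbfb library lay above sgControl in 237 (53.1%) and below in 4 (0.897%). *Jchain* had means of 778 CPM in sgControl and 41.2 CPM in sgCbfb, *Mrc1* of 4.86 CPM in sgControl and 221 CPM in sgCbfb and *Dntt* of 39.4 CPM in sgControl and 251 CPM in sgCbfb. The sum of the means of the interferon list was 616 CPM in sgControl and 819 CPM in sgCbfb, with 17 of 38 tested members above sgControl in every library, and *Oas3* had means of 0 CPM in sgControl and 2.42 CPM in sgCbfb and *Isg15* of 2.44 CPM in sgControl and 4.75 CPM in sgCbfb. The difference between the experiments was not tested.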

How the data were processed

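RNA of sorted LPs was measured by QuantSeq, a protocol that primes at the poly(A) tail and counts reads at 3′ ends. The authors trimmed reads with fastp and mapped them with STAR to mm10; the counter, its strand setting and the versions are not given in the sources used here. The deposited values are named TPM in the files but are CPM: each is a whole number of reads times 1 step per library, without division by gene length, within 0.001 CPM for at least 99.0% of values.

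From these CPM values, 13177 of 55487 listed genes entered a limma fit (version 3.58.1 under R 4.3.3; lmFit, contrasts.fit, eBayes with trend) on log2(CPM + 1), with all 12 libraries of the second experiment in one fit, the contrast sgCTCF minus sgCbfb and Benjamini-Hochberg adjustment over all genes tested. Filter, thresholds and the floor of 3 reads are given with the results. The recovered reads were also tested with edgeR 4.0.16 (quasi-likelihood) and DESeq2 1.42.0. On simulated counts for this contrast, limma called 200 of 200 genes changed 4-fold and 2 of 12568 unchanged ones. Only genes above a higher mean than the 10 CPM of a call were changed, and each gene was drawn on its own. The simulation therefore does not cover changes near 2-fold, genes near 10 CPM or shifts shared by many genes of a library. Single values were compared with two-sided exact permutation tests. Gene positions and overlaps came from GENCODE M21, and promoter sequences from RefSeq.

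Alternatives were the pseudocount, the filter, the fold and level thresholds, the scaling, the samples in the fit, the replicate block and the omission of each library. Named were the targets, RUNX genes, the 10 largest called differences in each direction among genes with reads in every library and groups that do not overlap, in each direction the 5 called genes with the highest mean whose other group was at the floor, up to 6 called members of each of 33 lists, the study's T-signature genes and the genes of 5 runs of adjoining calls. *Gata3*, *B2m*, H2-T22, *Smc3*, *Rad21*, *Bcl11a*, *Mn1*, *Mycn*, *Tfrc* and the Hoxa genes were named outside this rule after their values were seen, as were list sums without called members. The same holds for *Stag1*, *Esco1*, *Calr*, *Pdia3*, *Lef1*, *Ikzf1*, *Ets2*, *Cd5*, *Fyn*, *Irf8*, *Tcf4*, *Bst2* and *Clec10a*. Cell type markers were also named outside the rule. Some genes that the rule names are not reported here. The members and lists were chosen with earlier results of these data known. The study describes the triplicates as biologically independent. The sgMed12 libraries and the cultures on Notch ligand were not compared here.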

Additional observations from a re-analysis of the deposited data

How the results depend on the processing

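Counts of genes higher in sgCTCF than in sgCbfb LPs (459) and of genes lower in sgCTCF than in sgCbfb LPs (446) were within 1.5 times of these values under the other settings with 3 exceptions. These were both counts without the fold threshold, at 1152 higher and 1108 lower, and the lower count with a mean over 20 CPM, at 287, beside 309 higher. Leaving out 1 library at a time gave 435 to 477 higher and 408 to 454 lower. The counts were 460 and 445 with edgeR, 458 and 445 with DESeq2, and 467 and 427 with median-of-ratios scaling; with mitochondrial genes and the most abundant transcript left out of the total, an alternative chosen after seeing the data, they were 519 and 461. edgeR shared 904 and DESeq2 903 of the 905 calls. With a replicate block the counts were 460 and 445. Same-numbered libraries deviated with r of 0.017, 0.043 and 0.054. Replicates 2 and 3 of sgCTCF deviated most with their own number, and replicate 1 more with another number, at 0.023. Values this small cannot decide whether the numbers pair the samples. *Cbfb* ranged from 1.10 to 1.31 and *Ctcf* from -0.22 to -0.08 on the log2 scale over left-out libraries. *Gfi1*, not called, changed sign, at -0.07 without sgCTCF replicate 3 and -0.18 without sgCbfb replicate 2, within a range of -0.18 to 0.32; the cause was not tested. Among values of single genes under alternatives, 3025 kept direction and call, 65 lost the call and 2 changed sign. At this depth 3 reads are up to 0.894 CPM, so that levels below that are not measured, and folds against them are bounds.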
